A study of Danio rerio with 13 samples.

Results

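The Notch receptors and their ligands were followed through RNAseq of sorted zebrafish arch neural crest cells (NCCs). The 10 members were taken by gene name: the receptors *notch1a*, *notch1b*, *notch2* and *notch3*, the Jagged ligands *jag1a* and *jag1b*, and the Delta ligands *dla*, *dlc*, *dld* and *dll4*. All 10 were found among the 27911 genes of the expression table. The study asked how Jagged-Notch and Endothelin1 (Edn1) signaling pattern the upper and lower face, and sequenced 13 populations of cells sorted from pooled embryos, 1 library each. All embryos carried the reporters *fli1a*:EGFP and *sox10*:DsRed, and cells positive for both were taken as arch NCCs. Neither reporter is specific to the arches alone, since the first is also on in vessels and macrophages and the second in the ear. Embryos for 36 hpf were held at 22 °C from 27 hpf, so that stage is an approximation.

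Wild-type double-positive cells were collected at 20, 28 and 36 hours post-fertilization (hpf), and cells with only *fli1a*:EGFP or only *sox10*:DsRed at 36 hpf. The other 8 libraries are double-positive cells at 36 hpf. Wild types treated with DBZ, an inhibitor of gamma-secretase, from 24 to 36 hpf at 10 μM were compared with untreated wild types, and no library of vehicle-treated embryos was used here. *jag1b*-/- mutants (allele b1105) and their wild-type siblings were both genotyped from tail biopsies. *edn1*-/- mutants (allele tf216) were picked by arch shape and had no sibling library of their own here. The NICD library is from *hsp70I*:Gal4; *UAS*:NICD embryos and the Edn1 overexpression library from *hsp70I*:Gal4; *UAS*:Edn1 embryos. Embryos with *hsp70I*:Gal4 alone and with *UAS*:Edn1 alone served as controls, and all 4 of these populations were taken as heat shocked from 20 to 24 hpf. The paper names *hsp70I*:Gal4 embryos as the heat-shocked control and does not describe the *UAS*:Edn1 library. The heat-shock promoter is not specific to NCCs, so surrounding tissues were exposed as well. The *UAS*:NICD transgene encodes the intracellular part of zebrafish Notch1a, so reads of *notch1a* from the transgene and from the gene cannot be told apart in that library.

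Notch receptors are single-pass membrane proteins that bind Jagged or Delta ligands on neighboring cells. Binding leads to cleavage by ADAM proteases and then gamma-secretase, which frees the intracellular domain (NICD) to enter the nucleus, join the DNA-binding protein Rbpj and switch on targets such as *her* and *hey* genes. In the zebrafish arches, Jag1b is the Jagged ligand of the dorsal region and is required for the shape of the upper facial skeleton, and *notch2* and *notch3* are expressed in arch NCCs. Dll4 is best known for restraining vessel sprouting, and Dla, Dlc and Dld for lateral inhibition in the nervous system and, for Dlc and Dld, for somite segmentation.

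Values are RPKM as deposited by the authors, that is, read counts divided by transcript length and by the size of the library. Levels are therefore comparable between genes per length. A fold change is the ratio of RPKM between 2 libraries, and 1.5-fold in either direction was called among the 11690 genes that averaged an RPKM of 1 or more over the 13 libraries. Of the members, 8 passed this filter. *notch1b* (mean RPKM 0.582) and *jag1a* (mean RPKM 0.563) did not, and they were left out of all counts. Since every condition is a single library, differences could not be checked in replicates and are given without p-values. Instead, the 4 control libraries at 36 hpf (wild types, *jag1b* wild-type siblings, *hsp70I*:Gal4 and *UAS*:Edn1) give the spread between unperturbed arch NCCs, and the share of all tested genes that passed the same limit stands beside each count. Whole reads could be recovered from the RPKM steps for 6 members, and their folds carry an exact 95% counting interval. Such intervals compare 2 libraries, cover counting error only, and treat PCR-amplified reads as independent.

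Taking wild types at 36 hpf as 1, sequencing depth was lowest in *edn1* mutants (0.687) and highest in *hsp70I*:Gal4 controls (1.23). The label of arch NCCs was checked with 8 arch NCC markers, whose summed RPKM was 212 and 116 in the *fli1a*:EGFP and *sox10*:DsRed single-positive populations, 669 to 837 in the 4 controls, 370 with NICD and 262 at 20 hpf, with every marker above 0 in each. The paper reports some of these markers, such as *barx1*, as regulated by Notch and Edn1. The wild-type 36 hpf library stands apart from the other controls. Its 6 muscle markers summed to 214, against 62.2 in the siblings and 4.28 to 10.6 in the heat-shocked controls. *mylpfa* (168 against 45.0 in the siblings), *acta1b* (35.5 against 12.2) and *tnnc2* (9.15 against 3.03) made up this difference. *myod1* (0.534 against 0.613), *myog* (0.0140 against 0.274) and *myf5* (0.730 against 1.06) were below the siblings. Of the 8 members that passed the filter, 7 had their lowest control level in the wild-type 36 hpf library. Member results that rest on it are therefore given with the sibling library as well, while pathway counts were taken with the wild types alone. The pathway gene *maml1* was at 0.760 to 1.39 in wild types at 36 hpf, *edn1* mutants and both single-positive populations. In the other libraries it was at 3.40 to 5.89, whereas the ranges of *rbpja* overlapped (5.40 to 11.1 against 7.01 to 12.5). The paper names different sequencing instruments and read lengths, and the labels used here do not give them. Comparisons between these groups of libraries cross this split, and its cause was not tested. DBZ over wild types, 36 over 28 hpf and siblings over wild types cross it. *edn1* mutants over wild types and wild-type double-positive over single-positive cells do not, but they do with the siblings in place of the wild types. The median over all tested genes was shifted by 0.22 on the log2 scale in both *edn1* mutants over wild types and double-positive over *fli1a*:EGFP single-positive cells. In the other comparisons it lay between -0.11 and 0.15.

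*notch2* was the most abundant receptor and *jag1b* the most abundant ligand in all 4 control libraries at 36 hpf. *notch2* was at 11.6 in wild types, 12.9 in *jag1b* wild-type siblings, 13.6 in *hsp70I*:Gal4 and 18.2 in *UAS*:Edn1 controls, and made up 55.2% to 61.3% of the summed RPKM of the 4 receptors. *jag1b* was at 19.3, 18.9, 22.9 and 27.8 in the same order, and made up 57.5% to 75.1% of the summed RPKM of the 6 ligands. These were the steadiest members, with a ratio of highest to lowest control of 1.57 for *notch2* and 1.47 for *jag1b*.

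*notch3* came next among the receptors, at 4.82 in wild types, 5.85 in siblings, 7.34 in *hsp70I*:Gal4 and 10.3 in *UAS*:Edn1 controls. *notch1a* followed at 1.81, 2.36, 3.44 and 3.26 in the same order. The ranges of *notch2*, *notch3* and *notch1a* did not overlap over the 4 controls, so their order held in every pair of libraries. *notch1b*, the paralog of *notch1a*, was at 0.254 to 0.659, below the other 3 receptors in each control.

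Among the Delta ligands, *dla* was at 2.31 in wild types, 6.42 in siblings, 5.50 in *hsp70I*:Gal4 and 5.26 in *UAS*:Edn1 controls, and *dll4* at 2.32, 4.65, 3.07 and 3.18. Their ranges overlapped, so their order was not resolved by the spread between controls. *dlc* (0.798, 0.976, 2.40 and 1.78) and *dld* (0.535, 1.49, 1.16 and 1.5) lay lower, below *dla* and *dll4* in each of these libraries, and overlapped with each other. *jag1a*, the paralog of *jag1b*, stood at 0.424 to 0.713, and *jag1b* was at least an order of magnitude above it in every control.

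Of the ligands outside the member list, *dlb* was at 1.38 to 4.0 and *jag2b* at 1.14 to 2.81 in the controls. Both lay within the span of the Delta members there, 0.535 to 6.42, and *dlb* was above *dlc* and *dld* in each control. *jag2a* was at 0.0718 to 0.127.

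**Figure D1:**
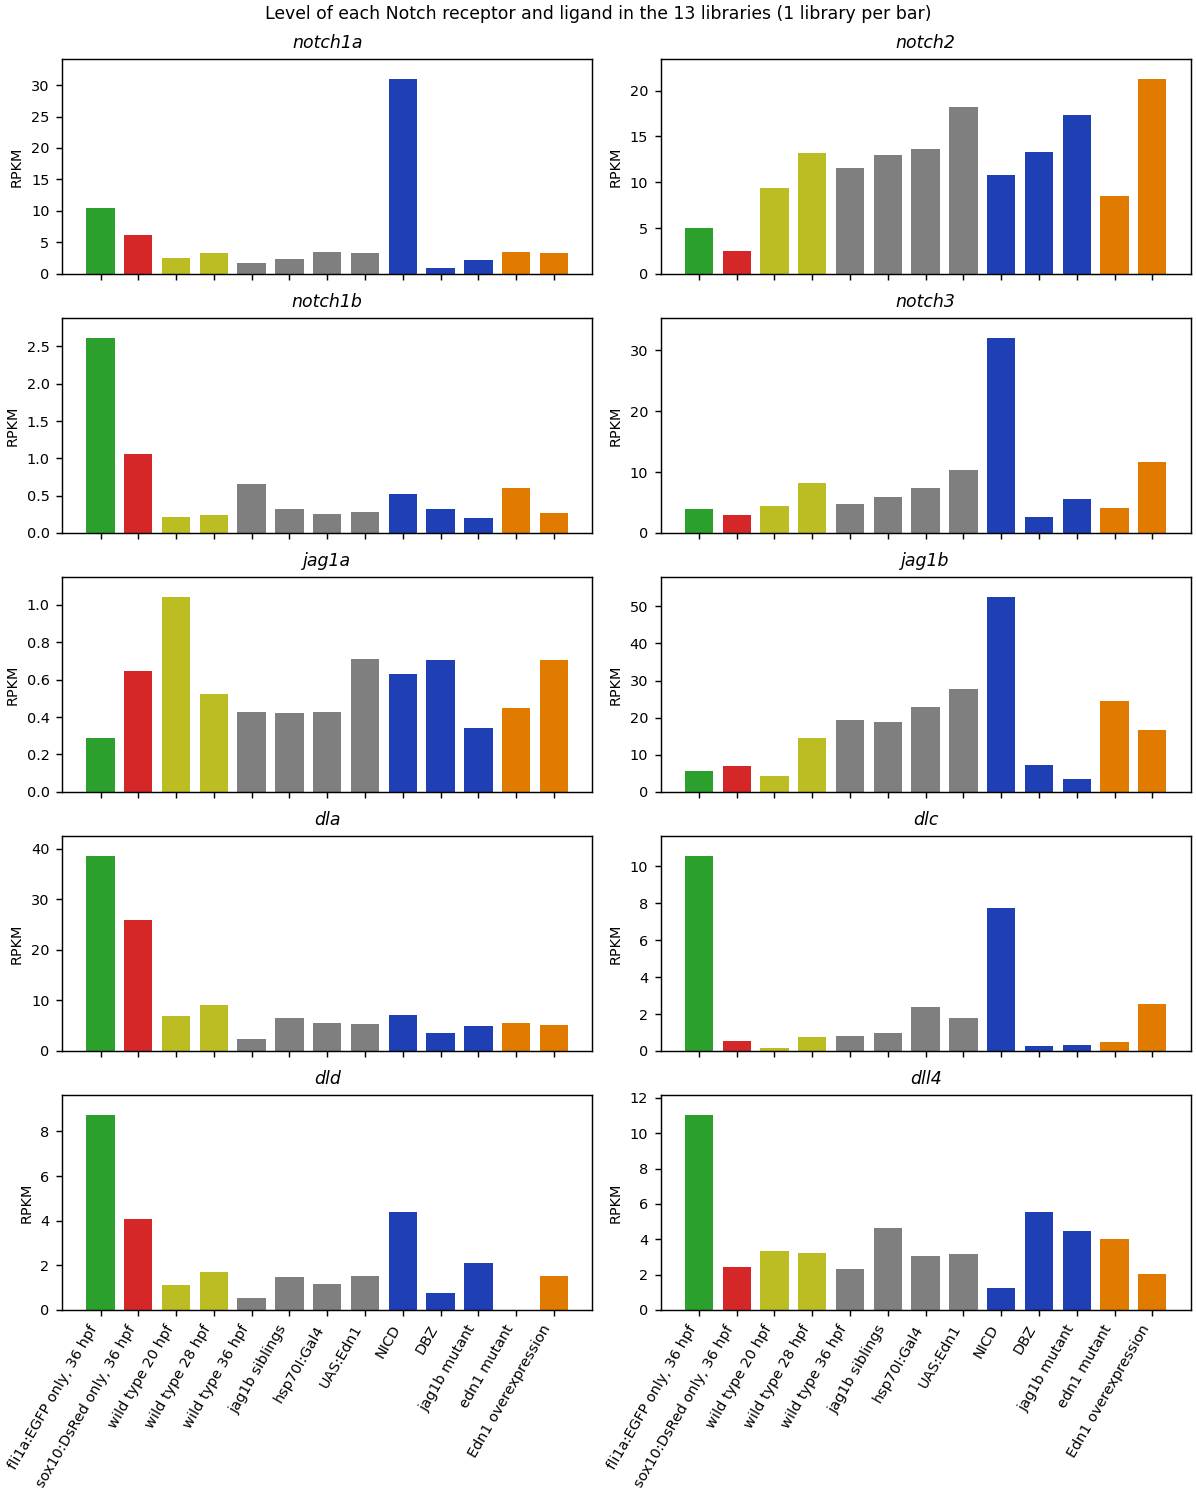
RPKM on a linear axis from 0 for each of the 10 members, with 1 bar for each of the 13 libraries and a scale of its own for each gene (green and red, single-positive populations; yellow, wild types at 20 and 28 hpf; grey, the 4 controls at 36 hpf; blue, Notch perturbations; orange, Edn1 perturbations). The grey bars of *notch2* lie between 11.6 and 18.2 and those of *jag1b* between 18.9 and 27.8, and *dld* has no bar in *edn1* mutants, where it is listed at 0.

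The 4 control libraries also give the spread that comes without a change in Notch or Edn1 signaling. Between the heat-shocked controls, *UAS*:Edn1 over *hsp70I*:Gal4, 0 of 8 members passed 1.5-fold, while 8.66% of all genes were higher and 7.81% lower. Between the unshocked controls, siblings over wild types, 3 of 8 members were higher (background 13.1%) and 0 lower (17.3%). These were *dla* at 2.78-fold, *dld* at 2.79-fold (2.19 to 3.59) and *dll4* at 2.0-fold (1.77 to 2.27), all Delta ligands. Both heat-shocked controls lay above both unshocked controls for 5 of 8 members, *notch1a*, *notch2*, *notch3*, *jag1b* and *dlc*, compared with 27.1% of all genes. No member lay the other way, compared with 12.9% of all genes. The 8 neuronal markers summed to 24.7 and 19.9 in the heat-shocked and 4.40 and 9.01 in the unshocked controls, and their part in these differences was not tested. Heat shock and genotype cannot be told apart in this contrast. The NICD and Edn1 overexpression libraries were therefore compared with heat-shocked controls first, and the other perturbed libraries with unshocked controls. DBZ had no vehicle-treated control and *edn1* mutants no siblings.

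*notch2* and *jag1b* stood out from both single-positive populations by more than 1.5-fold. In double-positive cells *notch2* was at 11.6, against 4.99 in the population with *fli1a*:EGFP alone and 2.55 in that with *sox10*:DsRed alone. This made it 2.32-fold and 4.54-fold higher in double-positive cells. *jag1b* was at 19.3 against 5.60 and 6.97, or 3.44-fold and 2.77-fold higher. *notch3* was at 4.82 against 3.90 and 3.01, which is 1.23-fold (1.15 to 1.32) and 1.60-fold (1.49 to 1.72) higher. With the siblings in place of the wild types, *notch2* was 2.60-fold and 5.08-fold higher and *jag1b* 3.37-fold and 2.71-fold higher. In bulk populations fewer cells of a type and less RNA per cell cannot be told apart.

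*notch1a*, *dla* and *dld* had the reverse pattern. In double-positive cells *dla* was at 2.31, against 38.7 with *fli1a*:EGFP alone and 25.9 with *sox10*:DsRed alone. *dld* was at 0.535, 8.75 and 4.09 in the same order, and *notch1a* at 1.81, 10.4 and 6.14. Both single-positive populations were thus above the double-positive cells for all 3 genes, by 16.7-fold and 11.2-fold for *dla*, 16.4-fold (13.2 to 20.5) and 7.64-fold (6.12 to 9.63) for *dld*, and 5.73-fold and 3.39-fold for *notch1a*. With the siblings as the double-positive cells the gaps were smaller but in the same direction, at 6.02-fold and 4.03-fold for *dla* and 5.86-fold and 2.74-fold for *dld*.

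*dlc* and *dll4* were high in *fli1a*:EGFP single-positive cells alone. *dlc* was at 10.6 there, 0.545 in *sox10*:DsRed single-positive cells and 0.798 in double-positive cells. *dll4* was at 11.1, 2.45 and 2.32. Relative to *fli1a*:EGFP single-positive cells, *dlc* was 13.3-fold (11.2 to 15.8) and *dll4* 4.76-fold (4.24 to 5.34) lower in double-positive cells, whereas neither passed 1.5-fold against *sox10*:DsRed single-positive cells. With the siblings as the double-positive cells, *dlc* was 10.8-fold and *dll4* 2.38-fold lower than with *fli1a*:EGFP alone, and they were 1.79-fold and 1.90-fold higher than with *sox10*:DsRed alone, both past the limit. The 8 endothelial markers summed to 170 in *fli1a*:EGFP single-positive, 1.56 in *sox10*:DsRed single-positive and 11.1 in wild-type double-positive cells at 36 hpf. The 8 neuronal markers summed to 119, 158 and 4.40 in the same order. The part of either cell type in the levels of the Delta ligands was not tested.

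In counts, 2 of 8 members were higher (background 17.8%) and 5 lower (11.7%) in double-positive cells when set against *fli1a*:EGFP single-positive cells. Against *sox10*:DsRed single-positive cells, 3 were higher (22.8%) and 3 lower (16.4%). With the siblings in place of the wild types these counts were 5 higher (25.0%) and 3 lower (25.2%), while those against *fli1a*:EGFP single-positive cells stayed at 2 and 5. The makeup of the receptors and ligands differed accordingly. *notch1a* was 47.5% (*fli1a*:EGFP) and 48.1% (*sox10*:DsRed) of the receptor sum in the single-positive populations but 9.62% in wild-type and 11.0% in sibling double-positive cells. *dla* was 51.6% and 63.8% of the ligand sum in the single-positive populations but 9.0% in wild-type and 19.5% in sibling double-positive cells, where *jag1b* was 75.1% and 57.5%. The sum leaves out *dlb*, at 8.74 (*fli1a*:EGFP) and 19.0 (*sox10*:DsRed) in the single-positive populations. In double-positive cells *dlb* was at 1.38 in wild types and 4.0 in siblings.

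**Figure D2:**
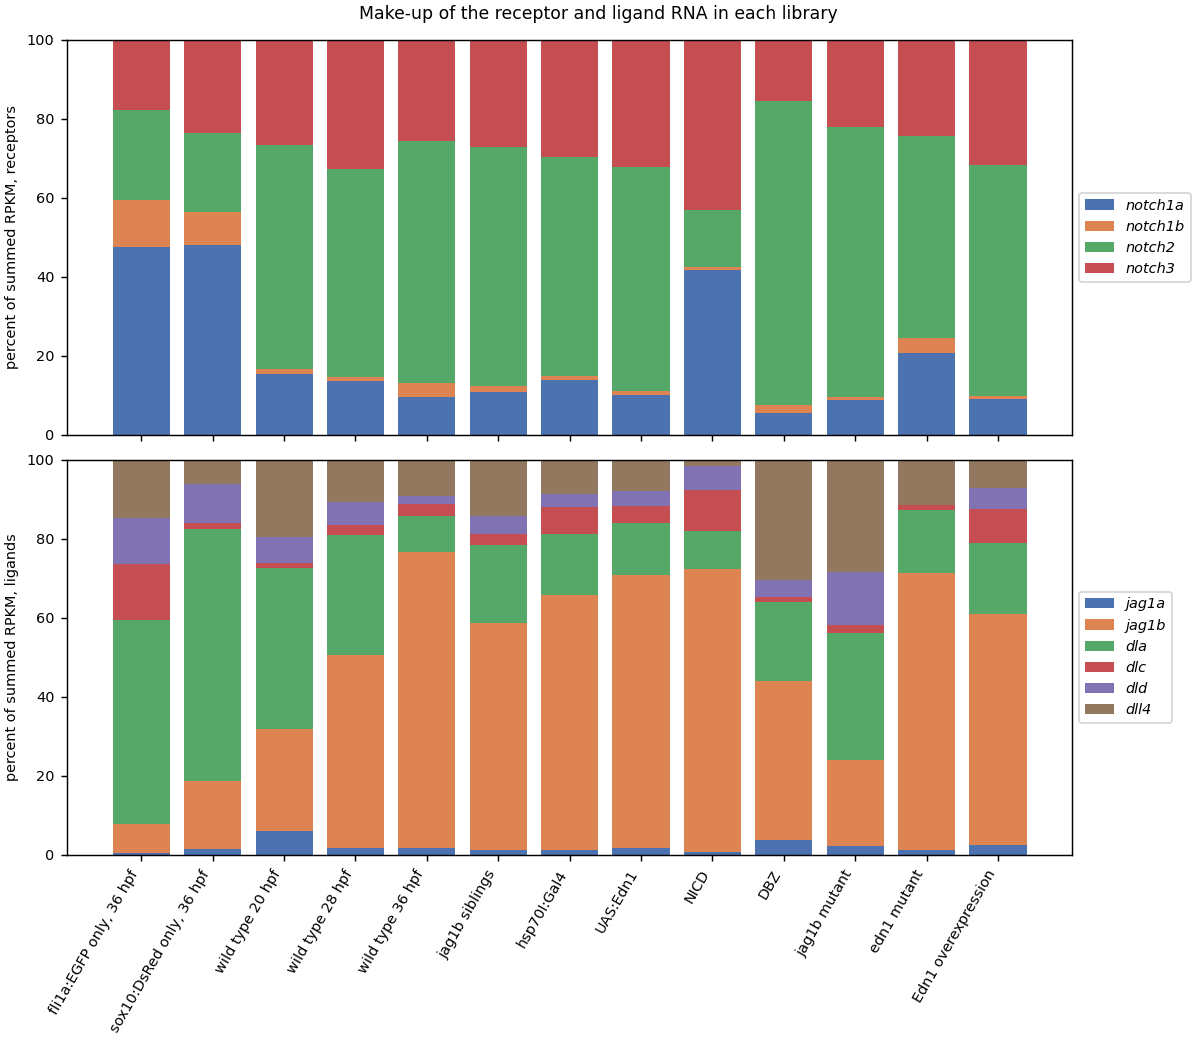
Share in percent of the summed RPKM of the 4 receptors (one panel) and of the 6 ligands (the other panel) for each of the 13 libraries, as stacked bars. *notch2* and *jag1b* make up most of the sum in the controls at 36 hpf, while *notch1a* and *dla* lead in the single-positive populations. With NICD the receptor sum includes *notch1a* reads that can come from the transgene.

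Over wild-type development, *jag1b* had the widest range of RPKM among the members. It was at 4.42 at 20 hpf, 14.6 at 28 hpf and 19.3 at 36 hpf, 3.31-fold higher at 28 than at 20 hpf and 1.32-fold higher at 36 than at 28 hpf. Its share of the ligand sum was 25.8% at 20 hpf and 48.9% at 28 hpf. *dla* led the ligands at 20 hpf with 40.8%. The siblings, at 18.9, put *jag1b* at 36 hpf close to the wild-type value. Over the same stages the 8 arch NCC markers summed to 262, 701 and 669. The 4 matched macrophage markers of 5 listed summed to 249, 106 and 4.03, and to 7.73 in the siblings, with none at 0. The part of macrophages or of a smaller share of arch NCCs in the stage differences was not tested.

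*dlc* was at 0.184 at 20 hpf, 0.765 at 28 hpf and 0.798 at 36 hpf, from 34, 142 and 147 reads. It was 4.16-fold (2.84 to 6.23) higher at 28 than at 20 hpf and 1.04-fold (0.823 to 1.32) higher at 36 than at 28 hpf. The receptors *notch2* (9.42, 13.2 and 11.6) and *notch3* (4.43, 8.22 and 4.82) were highest at 28 hpf. *notch3* was 1.86-fold (1.75 to 1.97) higher at 28 than at 20 hpf and 1.71-fold (1.61 to 1.80) lower at 36 than at 28 hpf, and *notch2* passed 1.5-fold at neither step.

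*notch1a* (2.55, 3.40 and 1.81), *dla* (6.99, 9.08 and 2.31) and *dld* (1.13, 1.72 and 0.535) also peaked at 28 hpf and were lowest at 36 hpf. From 28 to 36 hpf *dla* was 3.93-fold, *dld* 3.21-fold (2.52 to 4.11) and *notch1a* 1.88-fold lower. Those later differences depend on the wild-type 36 hpf library. In the siblings *dla* was at 6.42, *dld* at 1.49, *notch1a* at 2.36 and *notch3* at 5.85, or 1.41-fold, 1.15-fold, 1.44-fold and 1.40-fold below 28 hpf, none past the limit. The neuronal markers summed to 11.7 at 20 hpf, 24.2 at 28 hpf, 4.40 in wild types at 36 hpf and 9.01 in the siblings, and their part was not tested.

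*jag1a* was at 1.04, 0.522 and 0.428, highest at 20 hpf, and *dll4* at 3.36, 3.21 and 2.32. In counts, 4 of 8 members (*notch3*, *jag1b*, *dlc* and *dld*) were higher at 28 than at 20 hpf (background 20.2%) and 0 lower (11.0%). From 28 to 36 hpf 0 were higher (15.1%) and 4 lower (24.6%), and with the siblings at 36 hpf 0 were higher (8.18%) and 0 lower (22.8%).

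**Figure D3:**
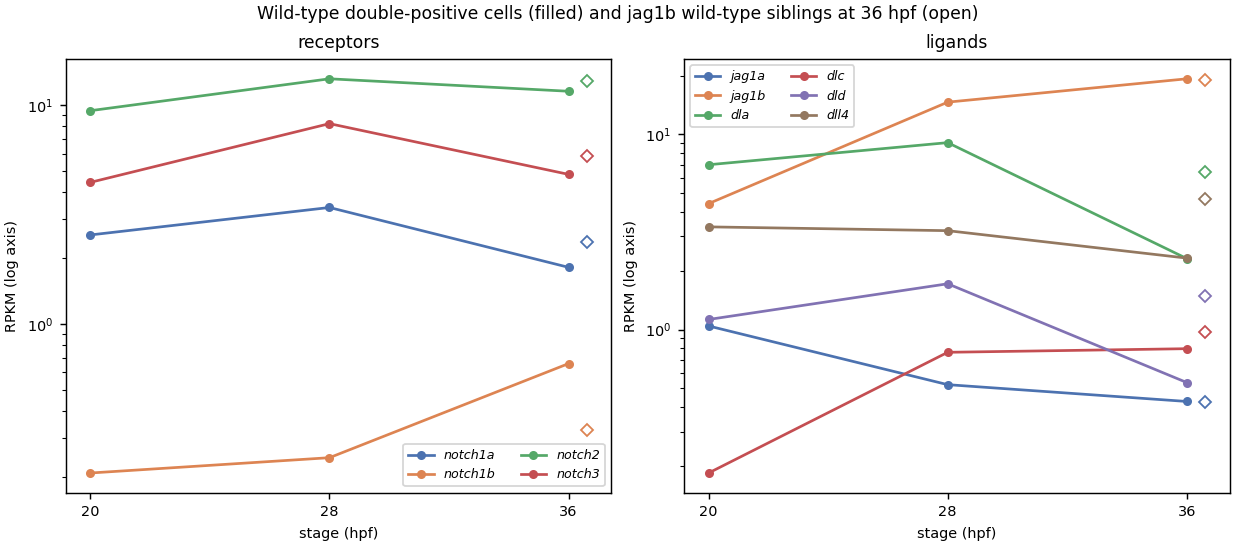
RPKM on a log axis of the members in wild-type double-positive cells at 20, 28 and 36 hpf, with the *jag1b* wild-type siblings as open symbols drawn slightly to the right of 36 hpf. *jag1b* and *dlc* are lowest at 20 hpf, and the wild-type and sibling values at 36 hpf lie apart for *dla*, *dld* and *dll4*.

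NICD overexpression went with higher levels of 5 of 8 members and a lower level of 1. Apart from *notch1a*, whose reads can come from the transgene, the higher genes were *notch3*, *jag1b*, *dlc* and *dld*, and *dll4* was lower. The background was 16.6% higher and 7.65% lower relative to *hsp70I*:Gal4 controls. *notch1a* was at 31.0 with NICD, 3.44 in *hsp70I*:Gal4 and 3.26 in *UAS*:Edn1 controls, 9.03-fold above the former. As reads of the transgene and of the gene cannot be told apart, this value is not read as a level of the gene.

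*notch3* was at 32.1 with NICD and 7.34 in *hsp70I*:Gal4 controls, from 12087 and 3606 reads. It was 4.37-fold (4.21 to 4.53) higher, and 3.11-fold above *UAS*:Edn1 controls, the highest of the 4 controls at 10.3. With NICD *notch3* thus stood above *notch2*. Their shares of the receptor sum were 43.1% and 14.5%, but that sum includes *notch1a* (41.7%), whose reads can come from the transgene. *notch2* itself was at 10.8, against 13.6 in *hsp70I*:Gal4 controls, 1.26-fold lower, and 1.68-fold lower than in *UAS*:Edn1 controls.

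*jag1b* was at 52.6 with NICD, 22.9 in *hsp70I*:Gal4 and 27.8 in *UAS*:Edn1 controls. This was the highest value of *jag1b* in the 13 libraries, 2.29-fold above the first and 1.89-fold above the other control. *jag1a* was at 0.629 against 0.425 and 0.713, within the range of the controls.

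*dlc* was at 7.73 with NICD against 2.40 in *hsp70I*:Gal4 and 1.78 in *UAS*:Edn1 controls, from 1346, 544 and 261 reads, and *dld* at 4.40 against 1.16 and 1.5. Both stood above all 4 controls. *dlc* was 3.22-fold (2.92 to 3.57) and *dld* 3.79-fold (3.27 to 4.41) higher than in *hsp70I*:Gal4 controls, and 4.35-fold and 2.93-fold higher than in *UAS*:Edn1 controls. *dla*, at 7.07 against 5.50 and 5.26, was 1.29-fold higher and did not pass the limit.

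*dll4* was at 1.23 with NICD, 3.07 in *hsp70I*:Gal4 and 3.18 in *UAS*:Edn1 controls, from 186, 604 and 405 reads. This was the lowest *dll4* value in the 13 libraries, 2.49-fold (2.11 to 2.95) below *hsp70I*:Gal4 controls and 1.88-fold below the lowest of the 4 controls. The summed endothelial markers were 9.86 with NICD and 7.54 to 11.1 in the 4 controls. The 7 ear markers summed to 33.0 with NICD and 5.53 to 15.6 in the controls, with *atoh1a* at 0 in wild types. *stm* (20.0 against 0.255 to 2.89), *otomp* (6.01 against 0.168 to 2.90) and *tecta* (0.604 against 0.0110 to 0.0677) were above all 4 controls. *oc90*, *pax2a*, *pax8* and *atoh1a* were within the control range. The arch NCC markers summed to 370 with NICD and 669 to 837 in the controls. Each of them was below all 4 controls with NICD, but to different extents. *dlx5a* (13.9 against 75.4 to 106), *hand2* (10.04 against 73 to 116) and *barx1* (12.6 against 66.2 to 117) had the widest gaps. The paper names these genes as inhibited by Notch. *prrx1a* (80.3 against 81.5 to 102) and *dlx2a* (127 against 139 to 190) lay close to the control range. The part of ear cells or of fewer arch NCCs in the NICD differences was not tested.

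Taking as the limit 1.5-fold beyond all 4 control libraries, an alternative chosen after seeing the data, *notch1a*, *notch3*, *jag1b*, *dlc* and *dld* stayed above it with NICD, where the background was 5.36%. *dll4* was the 1 member below, where the background was 2.69%.

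DBZ treatment, which blocks cleavage of the receptors, was set against untreated wild types. Of 8 members, 4 were lower (background 15.5%) and 2 higher (14.1%). *notch1a*, *notch3*, *jag1b* and *dlc* were lower and *dla* and *dll4* higher. With the siblings in place of the wild types, *notch1a*, *notch3*, *jag1b*, *dla*, *dlc* and *dld* were lower. None of the 8 was then higher past the limit. No share of all genes was taken for that control.

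*jag1b* was at 7.26 with DBZ, 19.3 in wild types and 18.9 in siblings, 2.66-fold and 2.60-fold lower. *dlc* was at 0.271 against 0.798 and 0.976, from 52, 147 and 184 reads, 2.95-fold (2.13 to 4.12) lower than in wild types and 3.60-fold lower than in siblings. *notch3* was at 2.68 against 4.82 and 5.85, 1.80-fold (1.67 to 1.94) and 2.18-fold lower. *notch1a* was at 0.977 against 1.81 and 2.36, 1.86-fold and 2.41-fold lower. Each of these 4 genes lay below all 4 controls by more than 1.5-fold, where the background was 2.80%, and no member lay as far above them (2.25%). With DBZ, *notch1a* had its lowest value in the 13 libraries.

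*notch2* was at 13.4, within the control range of 11.6 to 18.2, and with the lower *notch3* and *notch1a* made up 77.0% of the receptor sum. *jag1b* made up 40.0% of the ligand sum and *dll4* 30.5%.

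*dll4* was at 5.52 with DBZ, its highest value in double-positive cells, against 2.32 in wild types and 4.65 in siblings. It was 2.38-fold (2.10 to 2.69) above wild types but 1.19-fold above siblings. *dla* was at 3.62, which is 1.57-fold above wild types and 1.78-fold below siblings, so its direction turned with the control. *dld*, at 0.753, was 1.41-fold above wild types and 1.98-fold below siblings, in the interval between these controls. The muscle markers summed to 132 with DBZ, 214 in wild types and 62.2 in siblings, and the neuronal markers to 6.38, 4.40 and 9.01, and their part was not tested.

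**Figure D4:**
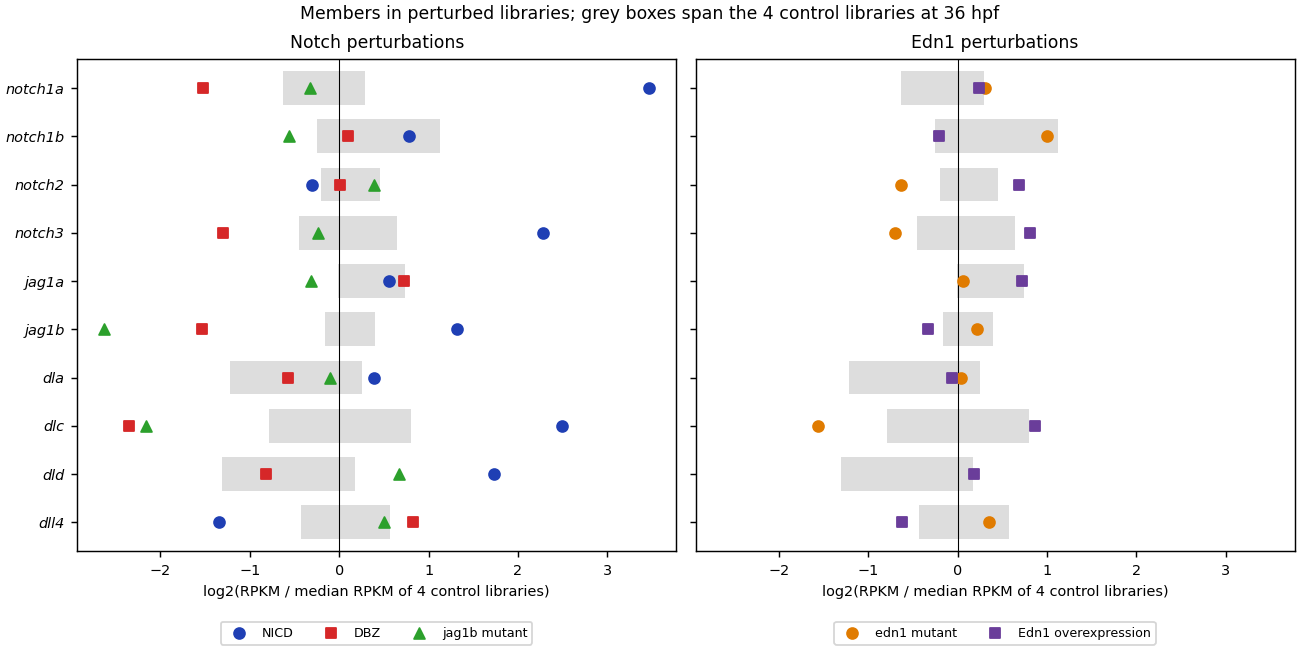
Each member in the perturbed libraries as log2 of its RPKM over the median RPKM of the 4 control libraries at 36 hpf, with grey boxes spanning those controls. *notch3*, *jag1b* and *dlc* lie right of the boxes with NICD and left of them with DBZ, *dll4* lies left of its box with NICD, and *dld* has no point for *edn1* mutants, where it is listed at 0.

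In *jag1b* mutants, set against their wild-type siblings, 2 of 8 members were lower (background 4.11%) and 0 higher (2.34%). The targeted gene itself was at 3.42 in mutants and 18.9 in siblings, 5.53-fold lower and the lowest of the 13 libraries. The remaining reads carry no information on whether they encode the protein. *jag1b* was then 21.9% of the ligand sum, below *dla* at 32.1% and *dll4* at 28.4%.

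*dlc* was the other gene past the limit. It was at 0.307 in mutants and 0.976 in siblings, from 50 and 184 reads, 3.18-fold (2.31 to 4.44) lower. Both genes also lay more than 1.5-fold below all 4 controls, where the background was 1.40%, with *dlc* 2.60-fold under the lowest of them. No member lay as far above (0.197%). The level of *dlc* in the mutants lay beside that with DBZ, at 0.271. The 5 epidermal markers summed to 7.34 in mutants and 61.9 in siblings, mostly from *krt4* in both (4.99 and 59.5). The 8 arch NCC markers summed to 836 and 837. The part of other cell types was not tested.

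The 3 receptors that passed the RPKM filter were within 1.5-fold of the siblings. *notch3* was at 5.59 against 5.85, 1.05-fold (0.986 to 1.11) lower, and *notch1a* at 2.24 against 2.36. *notch2* was at 17.4 against 12.9, 1.34-fold higher and within the control range. *notch1b*, outside the counts for its low level, was at 0.205 against 0.327, 1.60-fold (1.23 to 2.08) lower.

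*dll4* was at 4.44 in mutants and 4.65 in siblings, 1.05-fold (0.941 to 1.17) lower, and *dla* at 5.02 against 6.42. *dld* was at 2.11 against 1.49, 1.41-fold (1.20 to 1.67) higher. It lay above all 4 controls, as did 7.31% of all genes, without passing 1.5-fold against the siblings. *jag1a* was at 0.343 against 0.424, 1.24-fold (0.954 to 1.61) lower, with an interval that includes no difference.

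The Edn1 perturbations were compared in the same way. In *edn1* mutants 3 of 8 members were higher than in wild types (background 24.6%) and 1 lower (10.8%). The higher genes were *notch1a* (3.48 against 1.81, 1.92-fold), *dla* (5.52 against 2.31, 2.39-fold) and *dll4* (4.0 against 2.32, 1.72-fold, interval 1.5 to 1.98). With the siblings in place of the wild types, *dla* and *dll4* were 1.16-fold lower and *notch1a* 1.48-fold higher, so none of these 3 passed the limit against both. After median-ratio scaling of the libraries *dll4* over wild types was under the limit as well (log2 fold change 0.54).

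*dlc* was at 0.466 in *edn1* mutants, 0.798 in wild types and 0.976 in siblings, 1.71-fold (1.26 to 2.36) and 2.09-fold lower. It was the 1 member more than 1.5-fold below all 4 controls in *edn1* mutants, where the background was 5.43%, with *dld* left aside, and no member lay as far above (11.4%). *notch2* was at 8.54 against 11.6 and 12.9, 1.35-fold and 1.52-fold lower, and *notch3* at 4.07 against 4.82 and 5.85, 1.19-fold (1.1 to 1.28) and 1.44-fold lower. Both were below all 4 controls, as were 19.5% of all genes. *jag1b*, at 24.5 against 19.3 and 18.9, was 1.27-fold and 1.30-fold higher and within the control range.

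*dld* is listed at 0 in *edn1* mutants, whereas it ranged from 0.535 to 4.40 in the other 10 double-positive libraries. It was the 1 gene listed at 0 there that was at 0.5 or more in each of the others. Whether the 0 stands for absent reads or for a failed estimate could not be told from the table, and no fold is given. The *edn1* mutant library is also the shallowest, and its endothelial markers summed to 19.6, the highest of the double-positive libraries. Most of this sum was *kdrl*, at 13.8 against 5.44 in wild types at 36 hpf. Of the other endothelial markers, *cdh5*, *tie1* and *sox7* were lower than in those wild types, and *flt4*, *tek*, *pecam1* and *etv2* higher.

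With Edn1 overexpression 2 of 8 members were higher than in *hsp70I*:Gal4 controls (background 5.06%) and 1 lower (8.51%). *notch2* was at 21.3 against 13.6, its highest value in the 13 libraries and 1.57-fold higher. *notch3* was at 11.6 against 7.34, 1.57-fold (1.51 to 1.65) higher. *dll4* was at 2.03 against 3.07, 1.51-fold (1.31 to 1.74) lower. Against *UAS*:Edn1 controls, at 18.2 and 10.3, *notch2* and *notch3* were 1.17-fold and 1.12-fold higher, and *dll4* was 1.57-fold lower. *jag1b*, at 16.8 against 22.9 and 27.8, was 1.37-fold and 1.66-fold lower. It lay below all 4 controls, as did *dll4* and 21.8% of all genes.

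*dlc* (2.51 against 2.40 and 1.78), *dld* (1.51 against 1.16 and 1.5), *dla* (5.15 against 5.50 and 5.26) and *notch1a* (3.33 against 3.44 and 3.26) were within 1.5-fold of both controls. No member lay 1.5-fold beyond all 4 controls with Edn1 overexpression, where 0.761% of all genes were above and 1.49% below.

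Set side by side, *dlc* was 3.22-fold higher with NICD than in its controls, and 2.95-fold lower with DBZ, 3.18-fold lower in *jag1b* mutants and 1.71-fold lower in *edn1* mutants. *jag1b* stood 2.29-fold above its control with NICD and 2.66-fold below it with DBZ. *notch3* stood 4.37-fold above its control with NICD and 1.80-fold below it with DBZ, but 1.05-fold lower in *jag1b* mutants. *dll4* had the opposite signs. It stood 2.49-fold below its control with NICD and 2.38-fold above it with DBZ, the latter being 1.19-fold with the siblings as control. The NICD and Edn1 overexpression comparisons share the *hsp70I*:Gal4 library, and the DBZ and *edn1* mutant comparisons share the wild-type 36 hpf library.

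The rest of the pathway was followed through 48 listed genes, of which 43 were matched in the table and 35 passed the RPKM filter. With NICD, 14 of the 35 were higher (background 16.6%) and 0 lower (7.65%). The median log2 fold change of the 35 was 0.25, against 0.11 over all tested genes. Between the heat-shocked controls, *UAS*:Edn1 over *hsp70I*:Gal4, 6 of the 35 were higher (8.66%) and 1 lower (7.81%). The median of the 35 there was 0.22, against 0.14 over all tested genes, close to the NICD median. The 14 genes higher with NICD include *mfng*, at 0.158 against 0.0782, with an interval that includes no difference (0.817 to 5.31). The largest folds with NICD were *nrarpb* at 10.3-fold, *her2* at 8.22-fold, *hey2* at 6.05-fold and *her8a* at 4.30-fold. Nrarp proteins are feedback inhibitors of Notch and Her and Hey proteins are transcriptional repressors. Of the 7 *her* and *hey* genes 4 were higher, and *her6*, *her9* and *hes6* did not pass the limit.

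With DBZ, 7 of the 35 pathway genes were higher (background 14.1%) and 10 lower (15.5%), with a median of -0.04 against -0.07 over all genes. These counts were taken against wild types only. Some of the higher genes were near the siblings, such as *mib1* (11.2, with 6.98 in wild types and 11.1 in siblings) and *maml1* (3.58, 1.39 and 3.77). *lfng* (8.96, 5.38 and 14.8) was below the siblings, and *maml3* (2.43, 1.21 and 1.48) was above both. Of the lower genes, *aph1b* (8.82, 14.0 and 8.22) was near the siblings. Of the 7 *her* and *hey* genes 5 were lower and 0 higher. *hey1* was at 2.04 with DBZ, 97.8 in wild types and 104 in siblings. *her6* was at 27.7, 180 and 385. *nrarpa*, at 25.5, was above wild types at 12.0 and below siblings at 68.3, so that, as for *dla*, its direction turned with the control.

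In *jag1b* mutants 4 of the 35 were lower (background 4.11%) and 0 higher (2.34%), with a median of -0.17 against -0.04. They included *her2* (12.6 against 34.2), *hey2* (3.04 against 7.73) and the ligand *dlb* (1.67 against 4.0). In wild types at 36 hpf these were at 13.5, 3.97 and 1.38. With that control the gaps of *her2* and *hey2* were thus smaller, and *dlb* was higher in the mutants. The fourth lower gene, the glycosyltransferase gene *mfng*, was at 0.0121 against 0.240, a low level in both. It was at 6.85 in *fli1a*:EGFP single-positive cells and 2.98 at 20 hpf. In the double-positive libraries at 36 hpf it was at 0.0121 to 0.331, so it passed the RPKM filter through other libraries. In *edn1* mutants 8 of the 35 were higher (background 24.6%) and 2 lower (10.8%), shares no larger than those of all genes. With Edn1 overexpression 4 were higher (5.06%) and 0 lower (8.51%), fewer than the 6 and 1 between the heat-shocked controls. Between the unshocked controls, siblings over wild types, 12 of the 35 were higher (background 13.1%) and 4 lower (17.3%), a larger count than in either Edn1 comparison.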

How the data were processed

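Each of 13 sorted populations is represented by 1 library. Reads were mapped by the authors to GRCz10 with TopHat 2. They assigned reads to Ensembl genes (release 80) in Partek by expectation/maximization and deposited RPKM for 27911 genes. These values were used without further scaling. Fold changes are ratios of RPKM, called at 1.5-fold among genes that averaged an RPKM of 1 or more. The RPKM steps of low genes gave relative depth and, within 0.06 of a whole number, reads, and intervals are exact Clopper-Pearson. The calculation was tested on simulated data. Python 3.11.15, numpy 2.4.6, pandas 2.3.3, scipy 1.17.1 and matplotlib 3.10.9 were used.

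The members and the pathway and marker lists were chosen with earlier results of these data known. All 10 members are named, and of the pathway genes the other ligands and those with the largest fold changes. *jag2a* was matched by gene ID. *hey1*, *her6*, *nrarpa* and the other pathway genes named with DBZ were picked after their values were seen. Alternatives were a pseudocount of 0.1, median-ratio scaling, another RPKM minimum, a 2-fold limit and the other control library. Of the reference at hand, which is of another genome build, no coordinates or sequences are given.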

Additional observations from a re-analysis of the deposited data

How the results depend on the processing

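No paired analysis was possible because each group has 1 library, and for the same reason no replicate could be left out. A 2-fold limit reduced the count of members from 4 to 2 for 28 over 20 hpf, 4 to 2 for 36 over 28 hpf, 6 to 3 for DBZ, 4 to 1 for *edn1* mutants and 3 to 0 for Edn1 overexpression. A mean RPKM of at least 3 left 2 for 28 over 20 hpf and 1 for *jag1b* mutants, since *dlc* and *dld* were then not tested. Without an RPKM filter 1 member passed between the heat-shocked controls. With the other control library the counts were 8 rather than 6 for *sox10*:DsRed single-positive cells, 0 for 36 over 28 hpf, 6 for *jag1b* mutants (against wild types) and 2 for *edn1* mutants. In *jag1b* mutants *notch2* (log2 fold change 0.59), *dla* (1.12), *dld* (1.98) and *dll4* (0.93) were then higher, and *jag1b* and *dlc* lower. Shares of all genes with the other control were taken only for *sox10*:DsRed single-positive cells and 36 over 28 hpf. None was taken at the 2-fold limit or the other RPKM minimum. Beyond all 4 controls the member counts were 1 for *edn1* mutants and 0 for Edn1 overexpression, this limit having been chosen after seeing the data. The other control reversed *dla* with DBZ (log2 fold change -0.83), *dla* in *edn1* mutants (-0.22) and *dll4* in *edn1* mutants (-0.22). The cause of these differences was not tested. Of the fold changes of single members, 109 of 109 with a pseudocount of 0.1 and 100 of 109 with median-ratio scaling stayed inside their counting interval or, for members without one, within 1 SD of the 4 controls. None of the called ones reversed under either. With the other control library fewer held by the same rule: 37 stayed inside, 39 moved outside and 3 reversed. Scaling took *notch3* over *sox10*:DsRed single-positive cells (0.54), *dld* from 20 to 28 hpf (0.53), *dll4* with Edn1 overexpression (-0.54) and *dll4* in *edn1* mutants (0.54) under 1.5-fold, and *notch2* in *edn1* mutants (-0.68) past it. Depth limits *dlc*, which rests on 34 reads at 20 hpf and 50 to 59 reads with DBZ and in both mutants. For *notch1a*, *notch2*, *jag1b* and *dla* whole reads were not recovered and the counting error is unknown.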

Other observations

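The genes whose levels over the 13 libraries were most like those of a member were found by Pearson's r of log2(RPKM + 0.1) among the genes that passed the RPKM filter. The libraries share controls, sorting gates and depth differences, so these values describe the 13 libraries and carry no p-value. For *notch3* they were *kcnj8* (r = 0.95), *abcc9* (r = 0.91) and *si:dkey-20i20.13* (r = 0.90). Without the NICD library r was 0.87, 0.82 and 0.83. *kcnj8* and *abcc9* encode the pore and the regulatory subunit of an ATP-sensitive potassium channel that is known from mural cells of vessels. *kcnj8* was at 21.1 with NICD, 0.524 to 1.33 in the 4 controls and 0.0305 with DBZ. *abcc9* was at 41.6, 0.304 to 1.17 and 0.0381. Both genes stood above all 4 controls with NICD and below them with DBZ, as *notch3* did. They were picked by likeness over libraries that include NICD and DBZ, so this shared pattern follows from the choice.

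For *notch2* the genes were *trioa* (r = 0.96), *gli2b* (r = 0.96), a transcription factor of the Hedgehog pathway, and *hmcn2* (r = 0.95). For *dll4* they were *ppp1r13ba* (r = 0.86), *PLEKHG5 (2 of 2)* (r = 0.85) and *id2b* (r = 0.84), an inhibitor of basic helix-loop-helix proteins. *id2b* was at 1.23 with NICD, 3.90 to 6.63 in the 4 controls and 10.7 with DBZ, above its controls with DBZ and below them with NICD. That pattern too follows from how the gene was picked. For *notch1a* the first was *sox3* (r = 0.89, and 0.96 without the NICD library), a transcription factor of neural progenitors. For *dlc* they were *NCAN* (r = 0.87), *prrg1* (r = 0.84) and *vcanb* (r = 0.82), of which the first and the last encode matrix proteoglycans.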
